A study of Homo sapiens with 9 samples.

Results

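The genes described here are 40 genes of homologous recombination and the Fanconi anemia pathway, with 1 mismatch repair gene among them, taken by gene symbol from a table of 30017 genes. All 40 were in the table and all 40 had enough counts to be tested. Homologous recombination repairs a double-strand break by copying an intact sister DNA molecule, so it works mainly in S and G2 phase, when a sister is present. BRCA1 and its partners start the process, nucleases cut back 1 strand at the break, BRCA2 helps to build the protein filament that searches for the matching sequence, and the joined molecules are later separated. The Fanconi pathway acts where a crosslink between the DNA strands stops a replication fork: its core complex attaches ubiquitin to FANCD2 and FANCI, and nucleases then open the crosslink. Inherited loss of Fanconi genes causes bone marrow failure and raises the risk of leukemia, so the pathway is often studied in blood cells.

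RNA was measured by bulk RNA-Seq in MOLM13, an established human acute myeloid leukemia line. All cells carried a lentiviral pLKO-GFP vector and were sorted on day 4 after transduction. The vector expressed a control hairpin (sh-Control) or 1 of 2 hairpins against the RNA helicase DDX41 (shDDX41 #1 and shDDX41 #2), with 3 libraries per group that carry the replicate letters A, B and D. The methods of the study describe its quantified assays in general as biological replicates. Labels do not say whether the 3 libraries of a group came from separate cultures, and p-values measure the spread between these libraries. Each DDX41 hairpin is a single sequence, so the depth of the knockdown and the identity of the hairpin cannot be told apart.

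Libraries held between 16385238 and 20510032 counts. Levels are in CPM, the counts of a gene divided by the TMM-scaled size of its library, so that libraries of different depth can be compared. DDX41 itself was at 117, 115 and 113 CPM in sh-Control A, B and D, at 12.2, 12.9 and 9.95 CPM with shDDX41 #1 and at 38.9, 39.9 and 42.5 CPM with shDDX41 #2, or 10.2% and 35.2% of the control. All 9 myeloid marker genes were expressed, and the B cell gene MS4A1 and the erythroid genes HBB and HBA1 had 0 counts in every library. Library D of shDDX41 #1 stood apart from A and B of its group, with a chi-square per degree of freedom of 17.6 and 19.2 against 2.91 between A and B. Results are therefore also given without it. The sh-Control libraries were spread as well, at 8, 10.1 and 8.35 between their pairs, against 2.72, 2.45 and 3.25 for shDDX41 #2. In the GENCODE 29 annotation, 6 of the 40 genes share at least 20% of their exon bases with another gene, so their counts are less certain: XRCC3, RAD54B, RAD50, FANCA, FANCL and MSH6.

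Promoter sequences are shown first, since S phase genes often carry sites for E2F factors near their start. RefSeq (GRCh38.p14) promoters, from 250 bases before to 50 after the start, were found for 36 of the 40 genes, and FANCI, RMI2, NBN and RAD54B had none in the table used. The E2F-type letters searched on both strands were TTTCCCGC, TTTCGCGC, TTTGCCGC and TTTGGCGC, and CCAAT and TTTGAA, common in promoters of cell cycle genes, were counted beside them. No E2F-type match in these promoters shared bases with a match of the other 2 motifs. An E2F-type match was present in 7 of the 36 promoters (19.4%), in 5.52% of the 9005 promoters found for tested genes and in 3.31% of all 35116 promoters. A single promoter per gene, the first listed, was used for the repair genes and the tested genes. The set of 35116 was not reduced in that way. CCAAT was present in 15 of 36 (41.7%, against 37.1% for tested genes) and TTTGAA in 3 of 36 (8.33%, against 9.67%). These shares are descriptions, and a match is not shown to be a bound site. All 7 genes with an E2F-type match fell with shDDX41 #1, as described further on. They make up 7 of 27 promoters of genes that fell and 0 of 9 promoters of the others. The other 2 motifs were split the same way. CCAAT was in 13 of 27 (48.1%) against 2 of 9 (22.2%), and TTTGAA in 3 of 27 against 0 of 9. With only 9 promoters in the second group, 0 matches says little, and these splits were not tested. The 7 promoter stretches with an E2F-type match are printed. Each is read along the strand of the gene with the match in capitals, which is one of the searched words or its reverse complement.
XRCC2, chr7:152676102-152676131, minus strand: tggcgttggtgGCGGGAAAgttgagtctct
EXO1, chr1:241848197-241848226, plus strand: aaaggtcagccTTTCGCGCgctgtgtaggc
FANCA, chr16:89816801-89816830, minus strand: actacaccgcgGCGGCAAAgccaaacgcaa
FANCC, chr9:95317737-95317766, minus strand: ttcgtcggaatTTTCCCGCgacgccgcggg
FANCD2, chr3:10026424-10026453, plus strand: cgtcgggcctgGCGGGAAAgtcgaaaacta
GEN1, chr2:17753859-17753888, plus strand: cagttgcggggTTTCGCGCcgccggagtct
MSH6, chr2:47783137-47783166, plus strand: ctccccccagaTTTCCCGCcagcaggagcc
In FANCC the stretch shows 1 of 2 matches. In EXO1, FANCD2, GEN1 and MSH6 the match begins within 5 bases of the annotated start. FANCF, the gene that rose most, had no E2F-type match in its window. It held 2 CCAAT matches, a motif that was also present in 13 of 27 promoters of genes that fell. These 2 matches are shown in capitals.
FANCF, chr11:22625863-22625923, minus strand: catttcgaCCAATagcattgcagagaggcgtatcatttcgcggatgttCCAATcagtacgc

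With shDDX41 #1, most of the repair genes fell. Of the 40 genes, 31 were lower than in sh-Control, 3 were higher (RAD50, FANCF and SLX4) and 6 were not called (PALB2, RAD51C, RAD51D, WDR48, FAN1 and TOP3A). A gene was called at a Benjamini-Hochberg adjusted p under 0.05 in edgeR's quasi-likelihood test, adjusted over all 12712 tested genes. By that rule 47.8% of all tested genes were called, 24.1% lower and 23.7% higher, beside 77.5% lower and 7.5% higher among the repair genes. The median log2 fold change of the 40 genes was -0.68, and that of all tested genes was 0.01. For all 31 genes that fell, the 3 shDDX41 #1 libraries lay below the 3 controls. The calls came from these same libraries, so this adds no support to them. Of the 40 genes, 33 had groups that did not overlap, beside 53.1% of all tested genes. At least 2-fold falls were seen for 8 genes: BRCA1, BRIP1, BRCA2, XRCC2, EXO1, FANCD2, FANCI and EME1. Summed over the 40 genes, CPM ran from 2205 to 2411 in the control libraries and from 1403 to 1552 with shDDX41 #1, or 64.2% of the control mean. In bulk RNA, fewer cells in the cycle phases that express these genes and less RNA per cell cannot be told apart.

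**Figure D1:**
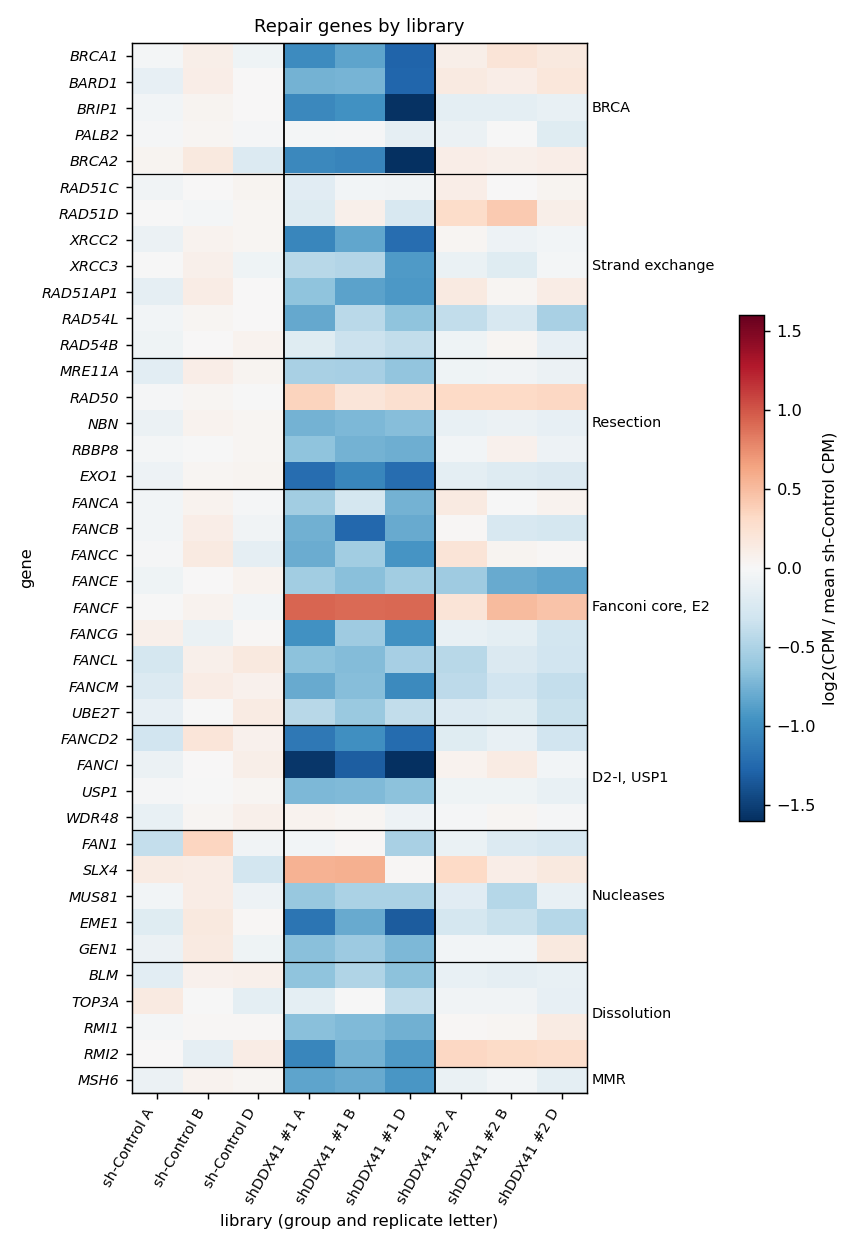
Level of the 40 repair genes in each of the 9 libraries, as log2 of the CPM over the mean sh-Control CPM of the gene; rows are genes grouped by role, columns are libraries, and blue is lower and red higher than the control mean. The 3 shDDX41 #1 columns are blue for most genes, with FANCF, RAD50 and SLX4 red on average, and the shDDX41 #2 columns are close to white apart from genes such as FANCE and RAD54L.

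Among the BRCA1 and BRCA2 group, 4 of 5 genes fell with shDDX41 #1 and 0 of 5 were called with shDDX41 #2, whether by edgeR (also 0 at an unadjusted p under 0.05), DESeq2 or limma. With library D of shDDX41 #1 left out of the fit, BRCA1 alone of the 5 was called with shDDX41 #2 (log2 0.17, adjusted p = 0.0456). BRCA2, which helps to build the repair filament on single-stranded DNA, was at 104, 112 and 87.1 CPM in sh-Control A, B and D, at 49.7, 48.8 and 31.8 CPM with shDDX41 #1 and at 108, 107 and 109 CPM with shDDX41 #2. Every shDDX41 #1 library was below every other library, and library D was the lowest. Its log2 fold change was -1.22 ± 0.13 (SE, n = 3 per group, adjusted p = 3.03e-06), and that with shDDX41 #2 was 0.10 ± 0.13 (adjusted p = 0.614). BRCA1, a ubiquitin ligase that favours resection, fell from 97.4 ± 6.03 to 47.6 ± 7.01 CPM (SD, n = 3; adjusted p = 4.36e-07). Its obligate partner BARD1 fell to 53.4% of the control (adjusted p = 1.35e-05), and the helicase BRIP1 to 44.5% (adjusted p = 1.84e-06). PALB2, the bridge between BRCA1 and BRCA2, was the one gene of this group that was not called. It was at 38.8 ± 0.884 CPM in the control and 37.1 ± 1.74 CPM with shDDX41 #1, a log2 difference of -0.07 ± 0.074 (adjusted p = 0.49).

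The genes that assist strand exchange were split. XRCC2, XRCC3, RAD51AP1, RAD54L and RAD54B fell with shDDX41 #1, while RAD51C and RAD51D, which share a complex with XRCC2, were not called. XRCC2 was at 23.1, 25.6 and 25.3 CPM in sh-Control A, B and D, at 12.0, 13.9 and 10.6 CPM with shDDX41 #1 and at 25.2, 23.3 and 24.0 CPM with shDDX41 #2. The shDDX41 #1 libraries averaged 49.3% of the control level and the shDDX41 #2 libraries overlapped the controls (log2 -1.02 ± 0.10, adjusted p = 1.75e-06, and -0.03 ± 0.098, adjusted p = 0.855). RAD51C reached 93.8% of the control (log2 -0.09 ± 0.071, adjusted p = 0.295) and RAD51D 92.0% (log2 -0.12 ± 0.11, adjusted p = 0.401). RAD54L, a motor protein that helps the filament invade its partner DNA, was the one gene of this group called with both hairpins. It was at 21.7, 22.7 and 22.5 CPM in sh-Control A, B and D, at 12.6, 16.5 and 14.3 CPM with shDDX41 #1 and at 16.97, 18.7 and 15.6 CPM with shDDX41 #2. No library with either hairpin reached the lowest control (log2 -0.62 ± 0.11, adjusted p = 0.000286, and -0.38 ± 0.11, adjusted p = 0.0171). The shDDX41 #2 call was lost without sh-Control B, shDDX41 #2 A or shDDX41 #2 D (adjusted p = 0.0531, 0.0568 and 0.083). RAD51AP1, a cofactor of strand exchange, fell to 57.3% (adjusted p = 4.2e-06). XRCC3 fell to 66.3% and RAD54B to 80.9% with shDDX41 #1 (adjusted p = 0.000366 and 0.0109), with 45.3% and 63.3% of their exon bases shared with other genes.

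In end resection, 4 of 5 genes fell with shDDX41 #1 and RAD50 rose. EXO1, the exonuclease of long resection that also serves mismatch repair, was at 62.4, 67.3 and 67.8 CPM in sh-Control A, B and D, at 28.3, 32.0 and 28.2 CPM with shDDX41 #1 and at 59.1, 57.0 and 56.2 CPM with shDDX41 #2. Its groups did not overlap with either hairpin, but the shDDX41 #2 difference was small (log2 -1.16 ± 0.073, adjusted p = 1.63e-08, and -0.20 ± 0.070, adjusted p = 0.051), and it was called in 6 of 19 alternatives. MRE11A, RAD50 and NBN form a single complex that senses and trims the break, and RBBP8 activates it. MRE11A, NBN and RBBP8 fell to 67.8%, 60.7% and 60.4% of the control with shDDX41 #1 (adjusted p = 2.52e-05, 2.99e-07 and 6.39e-07). RAD50, the ATPase of that complex, was at 81.6, 84.9 and 82.5 CPM in sh-Control A, B and D, at 107, 95.3 and 98.9 CPM with shDDX41 #1 and at 104, 103 and 104 CPM with shDDX41 #2. All 6 knockdown libraries lay above all 3 controls, and the hairpins overlapped each other (log2 0.27 ± 0.063, adjusted p = 0.00235, and 0.32 ± 0.063, adjusted p = 0.0018). Of RAD50's exon bases, 90.6% are shared with a second annotated gene on the same strand, and how the counting divided such reads is not given in the sources used here.

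The Fanconi core complex and its ubiquitin-conjugating enzyme gave 8 falls and 1 rise among 9 genes with shDDX41 #1. This group of 9 also held 4 of the 7 genes called with shDDX41 #2, 3 lower and 1 higher. These were 33.3% and 11.1% of the group, beside 13.4% and 11.6% of all tested genes. FANCB, of the catalytic module, was at 9.33, 10.3 and 9.22 CPM in sh-Control A, B and D, at 5.67, 4.01 and 5.52 CPM with shDDX41 #1 and at 9.78, 8.03 and 7.94 CPM with shDDX41 #2. The shDDX41 #1 libraries were the lowest 3 of the 9, and the shDDX41 #2 libraries overlapped the controls (log2 -0.92 ± 0.15, adjusted p = 0.000149, and -0.16 ± 0.14, adjusted p = 0.428). FANCA, FANCC, FANCG and FANCL fell to 69.97%, 59.3%, 56.5% and 65.0% with shDDX41 #1 and were not called with shDDX41 #2. FANCL is the ligase of the complex, and 26.7% of its exon bases are shared with other genes, as are 22.4% for FANCA.

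FANCE, FANCM and UBE2T were called lower with both hairpins, and of these only FANCE kept its shDDX41 #2 call in all 19 alternative analyses. FANCE, which binds FANCD2, was at 27.1, 28.7 and 29.7 CPM in sh-Control A, B and D, at 19.3, 17.9 and 19.4 CPM with shDDX41 #1 and at 19.3, 16.3 and 15.9 CPM with shDDX41 #2. Both hairpins left every library below the controls, and the hairpins did not differ from each other past the threshold (log2 0.14 ± 0.097, adjusted p = 0.261). The log2 fold changes were -0.59 ± 0.094 (adjusted p = 0.00011) and -0.73 ± 0.094 (adjusted p = 6.12e-05). FANCM, the translocase that brings the core complex to chromatin, was at 15.7, 19.8 and 19.1 CPM in sh-Control A, B and D, at 10.4, 11.3 and 8.98 CPM with shDDX41 #1 and at 13.6, 14.7 and 13.9 CPM with shDDX41 #2. The levels were ordered control, shDDX41 #2, shDDX41 #1 without overlap, and all 3 contrasts were called (log2 -0.83 ± 0.12, -0.37 ± 0.12 and -0.46 ± 0.12 between hairpins, adjusted p = 5.14e-05, 0.0309 and 0.00553). The shDDX41 #2 call was lost in 6 alternatives, 5 of them without 1 control library (B or D) or without any 1 of the shDDX41 #2 libraries (adjusted p = 0.0621 to 0.124). UBE2T, the ubiquitin-conjugating enzyme that works with FANCL, was at 40.2, 43.8 and 48.6 CPM in sh-Control A, B and D, at 32.6, 29.4 and 33.5 CPM with shDDX41 #1 and at 37.9, 38.6 and 34.4 CPM with shDDX41 #2. Its shDDX41 #2 libraries sat below the controls by a narrow gap (log2 -0.47 ± 0.087, adjusted p = 0.000397, and -0.26 ± 0.085, adjusted p = 0.039). The second of these calls was lost in 8 alternatives, 6 of them without 1 control library (B or D), without shDDX41 #1 A or without any 1 of the shDDX41 #2 libraries (adjusted p = 0.0517 to 0.168).

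FANCF, an adaptor that holds FANCC and FANCE on the core complex, moved the other way from its neighbours. It was at 12.6, 13.2 and 12.3 CPM in sh-Control A, B and D, at 24.2, 23.8 and 24.0 CPM with shDDX41 #1 and at 14.6, 18.0 and 17.5 CPM with shDDX41 #2. The 3 groups did not overlap, and the level was ordered control, shDDX41 #2, shDDX41 #1. Its log2 fold change was 0.92 ± 0.099 with shDDX41 #1 (adjusted p = 2.83e-06), 0.39 ± 0.10 with shDDX41 #2 (adjusted p = 0.00995) and 0.52 ± 0.096 between the hairpins (adjusted p = 0.000383). FANCF shares 0.0% of its exon bases with another gene. Without library B, the highest of shDDX41 #2, the call with that hairpin was lost (log2 0.33, adjusted p = 0.0586).

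**Figure D2:**
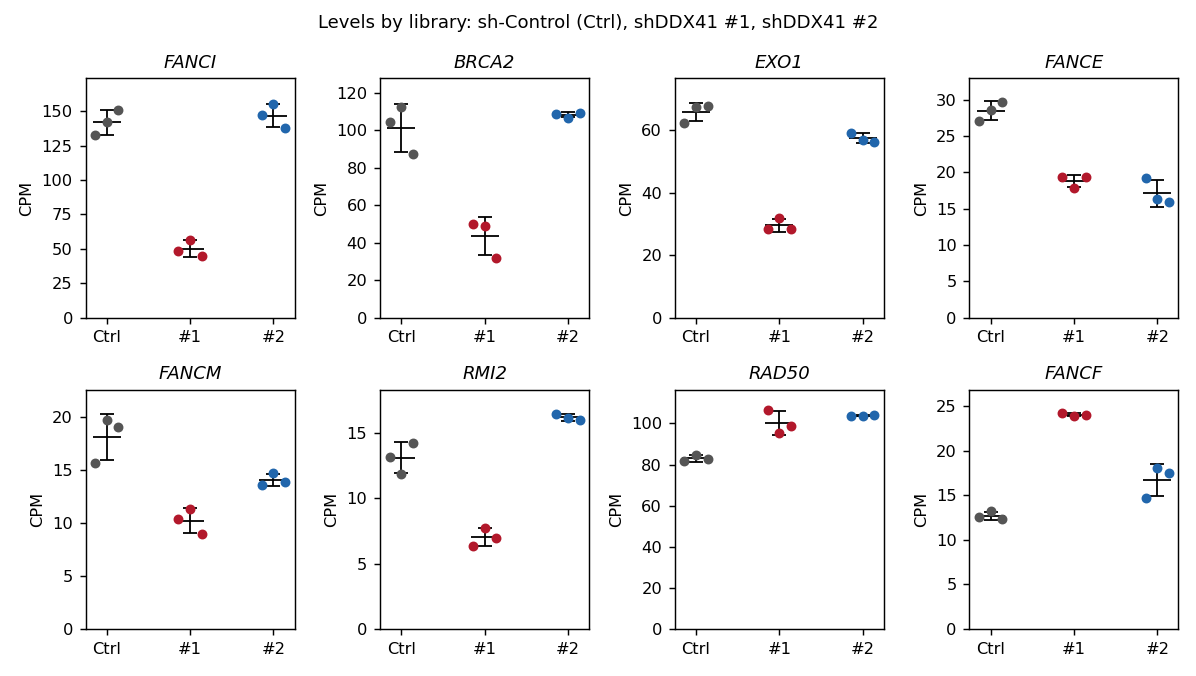
CPM of 8 repair genes in each library (1 point per library; long bar, group mean; short bars, 1 SD; n = 3; axes start at 0) for sh-Control (Ctrl), shDDX41 #1 and shDDX41 #2. FANCI, BRCA2 and EXO1 are well below the control with shDDX41 #1 and close to it with shDDX41 #2, FANCE is low with both hairpins, RMI2 moves in opposite directions, and RAD50 and FANCF are above the control with both.

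Both targets of the core complex fell with shDDX41 #1. FANCI, which forms a clamp on DNA with FANCD2, was at 133, 141.98 and 151 CPM in sh-Control A, B and D, at 48.4, 56.7 and 44.8 CPM with shDDX41 #1 and at 147, 155 and 138 CPM with shDDX41 #2. It had the largest fall of the 40 genes with shDDX41 #1, to 35.2% of the control, while its shDDX41 #2 libraries overlapped the controls. The log2 fold changes were -1.50 ± 0.087 (adjusted p = 7.69e-09) and 0.05 ± 0.083 (adjusted p = 0.703). FANCD2 fell from 59.9 ± 10.5 to 27.7 ± 2.46 CPM (SD, n = 3; adjusted p = 1.68e-06) and was at 52.0 ± 3.40 CPM with shDDX41 #2 (adjusted p = 0.188). The enzyme that removes the ubiquitin again has 2 subunits, of which 1 was called. USP1, the protease, fell to 61.8% of the control (adjusted p = 2.11e-07), and its activator WDR48 was at 55.0 ± 3.85, 55.1 ± 2.76 and 54.9 ± 1.12 CPM in the 3 groups. WDR48 differed from the control by a log2 of 0.00 ± 0.071 with shDDX41 #1 (adjusted p = 0.974).

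Of the nucleases, EME1, MUS81 and GEN1 fell with shDDX41 #1, SLX4 rose and FAN1 was not called. EME1, the partner of the MUS81 nuclease, was at 9.22, 11.7 and 10.7 CPM in sh-Control A, B and D, at 4.70, 6.05 and 4.19 CPM with shDDX41 #1 and at 8.65, 8.23 and 7.70 CPM with shDDX41 #2. The shDDX41 #1 libraries averaged 47.3% of the control level, and the shDDX41 #2 libraries were also all below the controls but did not pass the test (log2 -1.08 ± 0.15, adjusted p = 3.57e-05, and -0.36 ± 0.14, adjusted p = 0.0726). MUS81 fell to 68.9% and the junction resolvase GEN1 to 63.4% (adjusted p = 0.000445 and 1.89e-05). SLX4, the scaffold on which MUS81-EME1 and other nucleases dock, was at 27.6, 27.2 and 20.6 CPM in sh-Control A, B and D, at 37.1, 37.5 and 25.5 CPM with shDDX41 #1 and at 31.5, 27.1 and 27.9 CPM with shDDX41 #2. Library D was the lowest in the control and in shDDX41 #1, and those groups overlapped (log2 0.41 ± 0.14, adjusted p = 0.0251). The SLX4 call was lost without sh-Control D (adjusted p = 0.116), without shDDX41 #1 A (0.105) and without shDDX41 #1 B (0.108). FAN1, a crosslink nuclease, was at 30.8 ± 7.74 CPM (SD, n = 3) in the control and 27.5 ± 5.19 CPM with shDDX41 #1, and its SE was the largest of the 40 genes (log2 -0.16 ± 0.16, adjusted p = 0.41).

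BLM, TOP3A, RMI1 and RMI2 form the complex that takes double Holliday junctions apart. BLM, its helicase, fell to 66.2% with shDDX41 #1 and RMI1 to 60.9% (adjusted p = 1.9e-05 and 9.26e-07), while the topoisomerase TOP3A was at 88.6% and not called (adjusted p = 0.157). RMI2 was at 13.2, 11.9 and 14.2 CPM in sh-Control A, B and D, at 6.33, 7.72 and 6.98 CPM with shDDX41 #1 and at 16.4, 16.2 and 15.9 CPM with shDDX41 #2. All shDDX41 #1 libraries were below, and all shDDX41 #2 libraries above, the 3 controls. RMI2 was the one gene of the 40 called in opposite directions (log2 -0.90 ± 0.12, adjusted p = 1.93e-05, and 0.31 ± 0.11, adjusted p = 0.0497), and its rise with shDDX41 #2 was close to the threshold. That call was lost in 10 of 19 alternative analyses, among them DESeq2 (adjusted p = 0.0552), the replicate block (0.0511), and the fits without sh-Control A, sh-Control B or any shDDX41 #2 library (0.0821 to 0.16). MSH6, which recognises mismatches, was at 156, 174 and 169.6 CPM in sh-Control A, B and D, at 92.5, 95.2 and 87.5 CPM with shDDX41 #1 and at 155, 162 and 150.1 CPM with shDDX41 #2. It fell with shDDX41 #1 without overlap and overlapped the control with shDDX41 #2 (log2 -0.86 ± 0.066, adjusted p = 1.08e-07, and -0.10 ± 0.065, adjusted p = 0.297), with 21.0% of its exon bases shared.

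With shDDX41 #2, which left more DDX41 mRNA, 7 of the 40 genes were called: RAD54L, FANCE, FANCM and UBE2T lower, and RAD50, FANCF and RMI2 higher. Over all tested genes 25% were called, 13.4% lower and 11.6% higher, so the share among the repair genes (10% lower and 7.5% higher) was no larger than the background. The median log2 fold change of the 40 genes was -0.08, and their summed CPM ran from 2224 to 2285, or 97.6% of the control mean. Groups did not overlap for 16 of the 40, and for 43.8% of all tested genes. Of the 31 genes that fell with shDDX41 #1, 26 were not called with shDDX41 #2, and for 18 of the 31 the shDDX41 #2 libraries overlapped the controls. Most tested genes were likewise not called with shDDX41 #2 (9538 of 12712), and most overlapped the controls. These counts therefore do not set the 31 genes apart. The median SE over the 40 genes was 0.0963 on the log2 scale, and the largest uncalled difference was -0.36, that of EME1. The count of 7 fell to 3 without sh-Control B and without any one of the 3 shDDX41 #2 libraries, and rose to 11 without shDDX41 #1 D. Calls over all tested genes moved the same way in these fits. They fell from 3174 to between 2054 and 2299, and rose to 4248 without shDDX41 #1 D. The calls of FANCE and RAD50 were kept in all 19 alternative analyses.

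**Figure D3:**
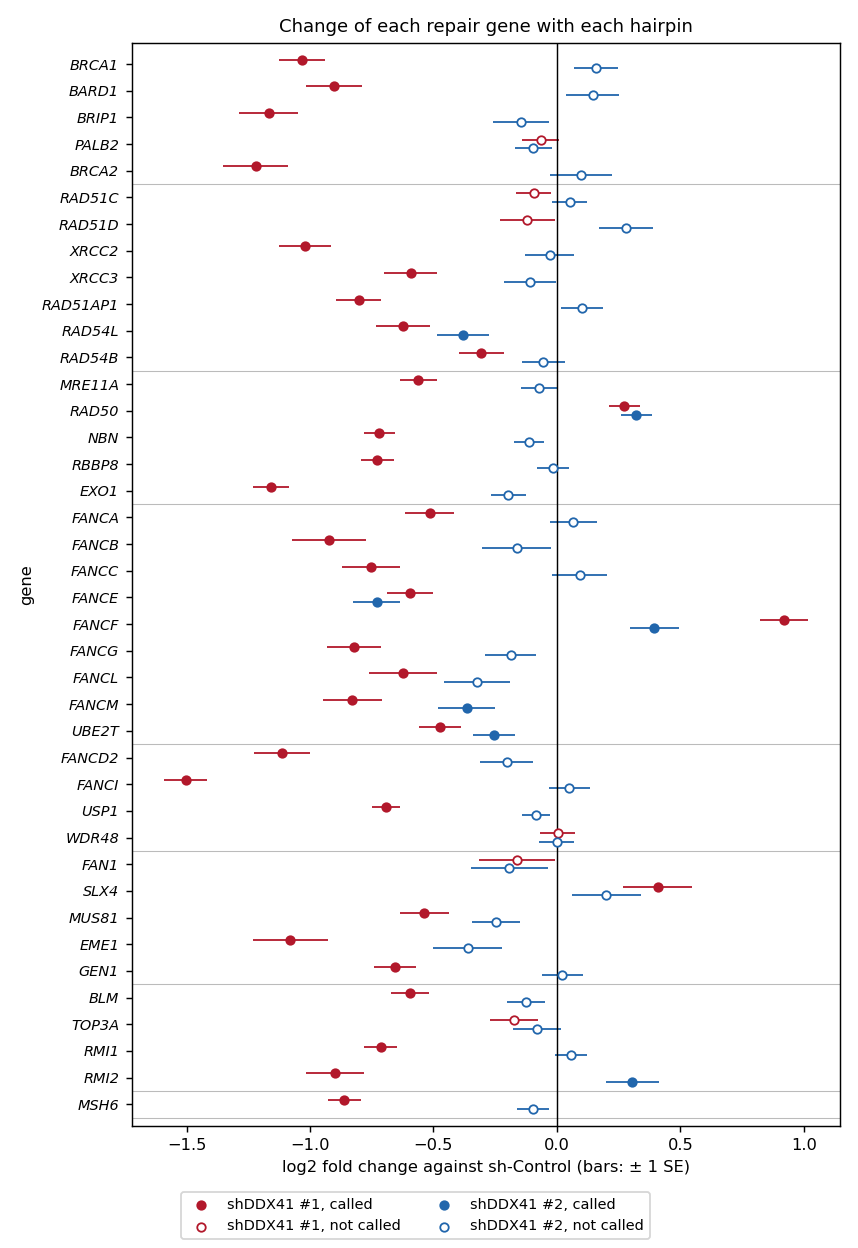
Log2 fold change of each of the 40 repair genes against sh-Control for shDDX41 #1 (red) and shDDX41 #2 (blue), with bars of 1 SE; filled points passed the adjusted p threshold of 0.05 and open points did not. Most red points lie left of 0 with a median of -0.68, and most blue points lie close to 0 with a median of -0.08.

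The 2 hairpins were also compared directly, since a call with one and not the other does not show a difference. Of the 40 genes, 28 were lower with shDDX41 #1 than with shDDX41 #2, FANCF was higher and 11 were not called, with a median log2 difference of -0.59. Over all tested genes 48.8% were called, 24.2% lower and 24.6% higher. Among the 26 genes that fell with shDDX41 #1 and were not called with shDDX41 #2, 25 were called lower between the hairpins. The exception was FANCL (log2 -0.30 ± 0.14, adjusted p = 0.0917). The 26 were picked by their values in the same shDDX41 #1 and shDDX41 #2 libraries. That choice favours a lower call, so the count of 25 adds little support, and no matching share of all tested genes was computed. Differences were deepest for FANCI (log2 -1.55 ± 0.087), BRCA2 (-1.32 ± 0.13), RMI2 (-1.21 ± 0.12) and BRCA1 (-1.19 ± 0.092). RAD51D was lower with shDDX41 #1 than with shDDX41 #2 (-0.40 ± 0.11, adjusted p = 0.00794) though it was not called against the control with either. In 4 of 19 alternatives it was called higher with shDDX41 #2. Groups did not overlap for 32 of the 40 genes and for 57.7% of all tested genes. Both comparisons with sh-Control used the same 3 control libraries, so their values are not independent of each other. Leaving out shDDX41 #1 D gave 34 called genes against the control with a median of -0.66, and 30 between the hairpins with a median of -0.52.

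Expression per length differed widely among the 40 genes. In CPM per kb of exon sequence (GENCODE 29, all exons of a gene merged), the control means were highest for NBN (58.6), USP1 (51.1), UBE2T (48.7) and FANCI (27.4). FANCB (3.19), FANCM (2.46) and RAD51D (1.70) were the lowest 3. FANCI went from rank 4 of 40 in the control to 9.66 CPM per kb with shDDX41 #1, a level at which PALB2 (9.70), ranked 20, stood in the control. The RAD51D value rests on a merged exon length of 10190 bases, longer than that of most of the 40 genes. Raw counts of single genes ran from 67 to 5532 per library.

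The other repair genes were described from lists of the same pathways. Beside them, 24.1% of all tested genes fell and 23.7% rose with shDDX41 #1, and 13.4% fell and 11.6% rose with shDDX41 #2. Of 41 further tested homologous recombination and Fanconi genes, 19 fell (46.3%) and 6 rose (14.6%) with shDDX41 #1, with a median log2 fold change of -0.31. PARPBP, which restrains recombination, fell (log2 -1.45 ± 0.087), and FAM175A and UIMC1, scaffold parts of a BRCA1 complex, rose (0.46 ± 0.079 and 0.34 ± 0.066). Of 6 other mismatch repair genes, 2 fell, and MLH3 (log2 0.61) and PMS2 (0.46), which has near-identical pseudogenes, rose. Among 18 end joining genes 6 fell (33.3%) and 3 rose (16.7%), with a median of -0.04. The polymerase POLQ (log2 -1.49) and FAM35A (-1.28) fell, and POLL (0.82) and C20orf196 (0.61) rose. Nucleotide and base excision repair had 7 falls (23.3%) and 9 rises (30%) among 30 genes, near the shares of all tested genes, and a median of -0.02. NEIL3 (log2 -0.97) was lower there, and APEX1 (0.45) and SMUG1 (0.55) were higher. With shDDX41 #2, 2 of the 41 further recombination and Fanconi genes fell (4.88%) and 3 rose (7.32%). In addition, 1 of 6 mismatch repair genes fell (16.7%) and 1 of 18 end joining genes rose (5.56%). Of 30 excision repair genes, 4 fell (13.3%) and 3 rose (10%). These shares with shDDX41 #2 were near or below those of all tested genes.

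Genes that mark the cell cycle phases fell in the same comparison as the repair genes. Of 38 S phase genes that are not among the 40, 37 fell with shDDX41 #1, with a median log2 fold change of -0.83, and 8 fell with shDDX41 #2. NASP, a histone chaperone, and DSCC1, a clamp loading factor, had the smallest adjusted p of these (log2 -2.64 and -2.07). Of 54 G2/M genes, 50 fell and 1 rose with shDDX41 #1, with HMMR (log2 -1.53) and ANLN (-1.25) among those lower and CBX5 (0.33) higher. With shDDX41 #2, 13 of the G2/M genes fell and 1 rose. The lower share with shDDX41 #2 was 21.1% for the 38 S phase genes, 24.1% for the G2/M genes and 13.4% for all tested genes. The summed CPM of the 38 S phase genes lay between 6684 and 7041 in sh-Control, 3523 and 3931 with shDDX41 #1, and 6183 and 6471 with shDDX41 #2. For the G2/M genes these ranges were 8040 to 8797, 5102 to 5617 and 8196 to 8314 CPM. The part of the cell cycle in the change of the repair genes was not tested. BRIP1, RAD51AP1, EXO1, USP1 and BLM belong to both the 40 genes and the S phase list, and without these 5 the repair genes gave 26 falls and 3 rises among 35 with shDDX41 #1, with a median of -0.62. The 9 myeloid markers summed to 2459 to 2650 CPM in control libraries, to 2513 to 2618 CPM for shDDX41 #1 and to 3388 to 3449 CPM for shDDX41 #2. With shDDX41 #1, CSF1R fell (log2 -0.86) while CD33 (0.25) and FLT3 (0.20) rose. These were 11.1% lower and 22.2% higher, beside 24.1% and 23.7% of all tested genes. With shDDX41 #2, 4 of the 9 markers rose (44.4%, beside 11.6% of all tested genes) and 0 fell: LYZ (log2 0.96), MPO (0.59), ITGAM (0.52) and PTPRC (0.18). Of 10 markers of other cell types, 2 could be tested, and the sum over all 10 was at most 3.64 CPM in any library. CD3D, a T cell gene at 1.16 CPM in the control, fell with shDDX41 #1 (log2 -1.25 ± 0.35, adjusted p = 0.00877).

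**Figure D4:**
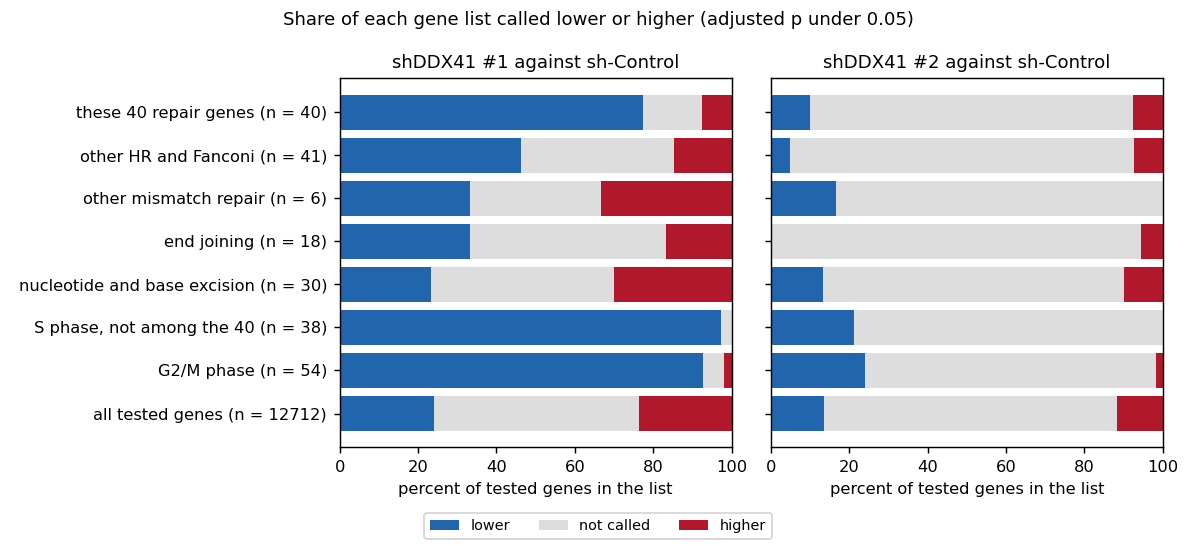
Percent of the tested genes of each list called lower (blue), not called (grey) or called higher (red) at an adjusted p under 0.05, for shDDX41 #1 (left) and shDDX41 #2 (right) against sh-Control. With shDDX41 #1 the lower share is 77.5% for the 40 repair genes, 97.4% for the other S phase genes, 92.6% for the G2/M genes and 24.1% for all tested genes; with shDDX41 #2 it is 10% for the 40 repair genes and 13.4% for all tested genes.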

How the data were processed

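The authors sequenced poly(A)-selected libraries of sorted MOLM13 cells, and the deposited values were raw counts, whole numbers for each gene in 9 libraries without normalization. The submitters' processing notes name FastQC 0.11.7, HISAT2 2.0.5 and featureCounts 1.5.2, and list a human and a mouse build without roles. The annotation and the handling of reads that map to several genes are not given in the sources used here. Labels and methods name different library kits, one stranded and one not, so reads of genes that overlap on opposite strands may not be separated.

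For the analysis, edgeR 4.0.16 was run in R 4.3.3. Its filterByExpr function, at a minimum count of 10, retained 12712 of 30017 genes. After TMM scaling, all 9 libraries entered one quasi-likelihood fit with a term for each group. Tests were two-sided with Benjamini-Hochberg adjustment per contrast. SE values are the absolute log2 fold change over the square root of F. With 3 against 3 libraries an exact permutation test of a single value cannot go below p = 0.1. Scripts were tested on simulated data. Genes are named by symbol as in the table. Values per library are given for the called gene with the largest fold change in each role group with either hairpin, genes called higher, genes called in opposite directions and genes called with shDDX41 #2. From each other list the 2 genes with the smallest adjusted p in each direction are named. Some genes of these lists are not reported here. The 40 genes, the role groups and the lists were chosen with earlier results of these data known. The alternatives were DESeq2 1.42.0, limma 3.58.1 voom, other scalings, filters and thresholds, the replicate letter as a block, only 6 libraries, and each library left out. Promoters came from RefSeq (GRCh38.p14) and exon lengths from GENCODE 29.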

Additional observations from a re-analysis of the deposited data

Results flagged for a closer look

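RMI2, the small subunit of the BLM complex, was lower than the control with shDDX41 #1 and higher with shDDX41 #2. The hairpins also differed from each other (log2 -1.21 ± 0.12, edgeR adjusted p = 9e-07), but such a call was a condition of this flag. It adds no support to the opposite directions, since the rise with shDDX41 #2 rests on an edgeR adjusted p of 0.0497. All 3 shDDX41 #1 libraries lay below and all 3 shDDX41 #2 libraries above the 3 controls. The fall with shDDX41 #1 was called in all 19 alternatives, and the rise with shDDX41 #2 was lost in 10 of 19.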

How the results depend on the processing

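Counts of called genes stayed within 32 to 34 (31 lower and 3 higher in the analysis reported) for shDDX41 #1 against sh-Control and within 27 to 30 between the hairpins over 19 alternatives. For shDDX41 #2 the count of 7 was 3 at an adjusted p under 0.01 and ran from 3 to 11 with 1 library left out, lowest without sh-Control B or any shDDX41 #2 library and highest without shDDX41 #1 D. Calls over all tested genes went from 3174 to 1670 at that threshold. They went to between 2054 and 2299 in the fits with the lowest counts, and to 4248 without shDDX41 #1 D. The cause was not tested. Upper quartile factors moved the median log2 fold change to -0.60 with shDDX41 #1 and to -0.044 with shDDX41 #2, where 4 genes were then higher and 3 lower in place of 3 and 4. The median with shDDX41 #2 ran from -0.092 to -0.032 with 1 library left out.

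No called gene changed direction in these alternatives. Calls were lost for SLX4 in 4 alternatives and RAD54B in 1 (shDDX41 #1), for RMI2 in 10, UBE2T in 8, FANCM in 6, RAD54L in 4 and FANCF in 1 (shDDX41 #2), and for RAD54B in 6, MUS81 in 4 and RAD51D in 1 between the hairpins. Calls were gained with shDDX41 #2 for EXO1 in 6, RAD51D in 4, EME1 in 3 and BRCA1, FANCL and FANCD2 in 1 each, and between the hairpins for UBE2T in 8 and RAD54L and SLX4 in 1 each. Replicate letters were not taken as pairs, since same-letter deviations correlated at -0.0574 to 0.243 over 9 pairs, not all above 0.1, and different letters at -0.184 to 0.0664 over 18. Between sh-Control and shDDX41 #1, however, every library correlated best with its own letter (r = 0.0725, 0.158 and 0.243 for A, B and D), a hint from the data and not from the design. With the replicate block, 34, 7 and 30 genes were called in the 3 comparisons. RMI2 then missed the threshold with shDDX41 #2 (adjusted p = 0.0511) and EXO1 passed it (0.0461), and UBE2T passed it between the hairpins (0.046).

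Some genes that were not called changed sign, given as log2 values. Most of these lay near 0 in the analysis reported, but FAN1 was at -0.16 with shDDX41 #1 and -0.19 with shDDX41 #2. Upper quartile factors gave 0.010 for PALB2 with shDDX41 #1, and with shDDX41 #2 0.0042 for XRCC2, 0.019 for RBBP8 and 0.033 for WDR48. Library size alone gave -0.0090 for WDR48 with shDDX41 #1. WDR48 with shDDX41 #2 was 0.0069 with DESeq2 size factors, 0.0067 without a filter, 0.0041 with 10 counts in every library, 0.0069 in the DESeq2 test, 0.00087 in limma and 0.0067 in the fit of 6 libraries. Between the hairpins WDR48 was -0.0020 with DESeq2 size factors, -0.0033 without a filter, -0.0020 in the DESeq2 test and -0.0048 in the fit of 6 libraries. With 1 library left out, the shDDX41 #1 values spanned -0.054 to 0.054 for WDR48 and -0.32 to 0.047 for FAN1. For shDDX41 #2 they spanned -0.0025 to 0.18 for BRCA2, -0.075 to 0.0015 for XRCC2, -0.062 to 0.016 for RBBP8, -0.058 to 0.038 for WDR48, -0.35 to 0.019 for FAN1 and -0.046 to 0.10 for GEN1. Between the hairpins they spanned -0.017 to 0.080 for PALB2, -0.025 to 0.047 for WDR48, -0.071 to 0.18 for FAN1 and -0.19 to 0.0098 for TOP3A.

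Counts of the 40 genes were 67 or more in every library. The SE was 0.0567 to 0.155 with shDDX41 #2, where the largest uncalled difference was -0.36 (EME1), so changes below that size can be missed with 3 libraries per group.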
